A study of Mus musculus with 14 samples.

Results

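The genes described here build the contacts that hold an epithelial cell to its neighbours and to the basement membrane. They were chosen by gene symbol: every gene on the array whose symbol has the stem of a claudin, a zonula occludens protein, occludin, a connexin of the Gja, Gjb or Gjc groups, a desmoglein, a desmocollin or an integrin subunit, plus Cdh1, Cdh17, Dsp, Jup, Pkp2, Pkp3 and F11r. The rule gave 90 genes of the 24675 genes with a single symbol on the array, and 51 of the 90 were bright enough on at least 3 arrays to be tested. They comprised 33 claudins, 4 other tight junction proteins, 12 connexins, 2 cadherins, 9 desmosomal cadherins, 4 desmosomal plaque proteins, 14 integrin alpha subunits, 9 integrin beta subunits and 3 proteins whose symbols match the integrin pattern but that are not integrins.

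The study sorted mouse intestinal crypt cells with and without Atg7, an enzyme needed to form autophagosomes, and measured their RNA on Affymetrix Mouse Gene 2.0 ST arrays, 1 array for each sorted sample. Atg7KO mice carried floxed Atg7 on both alleles together with the Lgr5-EGFP-IRES-CreERT2 allele, and WT mice carried the Lgr5-EGFP-IRES-CreERT2 allele alone. Both genotypes were given tamoxifen for 5 days running, and tissue was taken 1 month afterwards; no source used here gives the animals' ages. The 4 groups were Atg7KO EGFP high cells (3 arrays), WT EGFP high cells (3 arrays), Atg7KO EGFP low cells (4 arrays) and WT EGFP low cells (4 arrays), all CD24 low, with the high gate taken for stem cells and the low gate for their transit amplifying progeny. EGFP and the Cre recombinase are both driven from Lgr5, so the same allele defines the gate and limits deletion to Lgr5-expressing cells and their descendants; the allele is known to be active in only part of the crypts. Amplification started from 1 ng of RNA. The samples are labelled as coming from individual mice, and the arrays of each group are numbered here in order of the number in their titles. An equal array number in another group does not link arrays. Some title numbers occur in both gates, and the main fit did not use them to pair arrays.

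Tight junctions seal the space between epithelial cells: claudins set which ions pass, occludin and the junctional adhesion molecule F11r sit beside them, and the zonula occludens proteins tie them to actin. Below them, E-cadherin (Cdh1) forms adherens junctions, desmosomes couple desmogleins and desmocollins through plakoglobin, plakophilins and desmoplakin to keratin filaments, and connexins form gap junction channels. Integrins are pairs of an alpha and a beta subunit that bind basement membrane proteins such as laminin and collagen, and they anchor crypt cells to the sheet beneath them.

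Values are the log2 RMA levels deposited by the authors, and each difference is a difference of group means on that scale. Probe sets of different genes were not set against each other, because brightness depends on the probe. Atg7 itself lay at 5.91 to 6.37 in Atg7KO EGFP high cells against 6.76 to 6.83 in WT EGFP high cells, and at 5.65 to 6.06 in Atg7KO EGFP low cells against 6.46 to 7.49 in WT EGFP low cells, so the genotypes did not overlap in either gate; the position of its probes relative to the floxed exon was not examined. Lgr5 averaged 9.11 ± 0.12 in Atg7KO and 9.02 ± 0.31 in WT EGFP high cells (SD, n = 3 each), against 5.79 ± 0.52 in Atg7KO and 5.50 ± 0.67 in WT EGFP low cells (SD, n = 4 each). WT EGFP low array 4 stood apart, at -46.8 on the second principal component, and together with Atg7KO EGFP high array 2 it had the narrowest spread of values (SD 1.90 each). Both arrays are kept in the values below. Leaving out WT EGFP low array 4 turned the sign of 12 of the 51 differences between the gates in WT and of 18 of those between genotypes in EGFP low cells, and moved 21 more in each by over 1.5 times. Leaving out Atg7KO EGFP high array 2 turned 8 between the gates in Atg7KO and 5 between genotypes in EGFP high cells, and moved 14 and 20 more by over 1.5 times. Values without these arrays are given for the main members concerned.

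Of the 51 members tested, 41 reached the 40th percentile of the array on all 14 arrays, and 10 (Cldn14, Cldn20, Cldn34c2, Gja1, Dsg1a, Itga2b, Itgb2l, Itgb7, Itgb5 and Itgb2) on fewer, so their lowest values lie near background. That percentile fell between 3.75 and 3.98. The 39 members not tested had values of 2.20 to 4.12, and 32 of them reached the percentile on no array. They were 19 claudins (Cldn1, Cldn5, Cldn6, Cldn8, Cldn9, Cldn10, Cldn13, Cldn16, Cldn17, Cldn22, Cldn24, Cldn34-ps, Cldn34a, Cldn34b1, Cldn34b2, Cldn34b3, Cldn34b4, Cldn34c4 and Cldn34d), 8 connexins (Gja3, Gja4, Gja6, Gja10, Gjb5, Gjb6, Gjc1 and Gjc3), 6 desmosomal cadherins (Dsc1, Dsc3, Dsg1b, Dsg1c, Dsg3 and Dsg4, several of them known from stratified epithelia), 5 integrin alpha subunits (Itga4, Itga8, Itga9, Itga10 and Itga11) and Itgb3. Dsg1a, Dsg1b and Dsg1c, and the Cldn34 genes, are related genes whose probes may cross-hybridise, and their values are uncertain for that reason. Their sequences were not compared.

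The first comparison asked which adhesion genes differ between the EGFP high and the EGFP low gate in each genotype. In Atg7KO cells 4 of 51 members were called: Itga1 and Itga6 were higher in EGFP high cells (2 of 51; 4.48% of all genes tested were called higher), and Cdh17 and Pkp2 were lower (2 of 51; 6.44% of all genes). In WT cells 1 of 51, Itga1, was called, and it was higher in EGFP high cells (1.22% of all genes). The remaining members did not pass an adjusted p of 0.05 in limma. These counts are 7.84% of members in Atg7KO, where 10.9% of all 15873 genes tested were called, and 1.96% in WT, where 2.44% were called, so the members' share was not above the background in either genotype. At an unadjusted p under 0.05 there were 12 members in Atg7KO (background 27%) and 5 in WT (background 14.8%). In bulk samples such as these, fewer cells of a type and less RNA per cell cannot be told apart.

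Itga1 encodes the alpha subunit that pairs with Itgb1 as a receptor for collagens, including the collagen IV of basement membranes. In Atg7KO mice it read 6.64, 6.24 and 6.76 in EGFP high cells (arrays 1, 2 and 3) against 5.97, 5.96, 5.88 and 5.98 in EGFP low cells (arrays 1, 2, 3 and 4). In WT mice it read 6.82, 6.67 and 7.07 in EGFP high cells (arrays 1, 2 and 3) against 5.96, 6.24, 5.90 and 5.54 in EGFP low cells (arrays 1, 2, 3 and 4). Every EGFP high array lay above every EGFP low array of its genotype; this order of arrays within each group is kept in the sentences that follow. The difference was 0.60 (SE 0.18, adjusted p = 0.0421) in Atg7KO and 0.94 (SE 0.18, adjusted p = 0.0126) in WT, a 1.51-fold and a 1.92-fold higher level, with 95% intervals of 0.22 to 0.97 and 0.57 to 1.32. The Atg7KO difference minus the WT difference was -0.35 (SE 0.25, adjusted p = 0.529). The WT call ended without WT EGFP high array 3 (0.83, adjusted p = 0.0757). The Atg7KO call ended when any 1 of the 4 Atg7KO EGFP low arrays or Atg7KO EGFP high array 1 or 3 was left out. The same held without WT EGFP low array 1 or 3, or WT EGFP high array 1 (highest adjusted p of all these = 0.132). After median centring the Atg7KO difference was 0.50 (adjusted p = 0.124), and with only the compared groups in the fit its adjusted p was 0.0624.

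The second collagen-binding alpha subunit, Itga2, ran the other way without passing the test. It read 7.38, 7.32 and 7.71 in Atg7KO EGFP high cells against 7.71, 7.49, 7.99 and 7.80 in Atg7KO EGFP low cells, a difference of -0.28 (SE 0.20, adjusted p = 0.401). It read 8.01, 7.56 and 7.82 in WT EGFP high cells against 8.05, 8.16, 8.58 and 7.68 in WT EGFP low cells, a difference of -0.32 (SE 0.20, adjusted p = 0.503). The groups overlapped in both genotypes.

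Itga1 and the claudin Cldn2, described further on, had the largest positive differences between the gates among the 51 members in WT cells (0.94 and 0.92), and the 250 bases before their starts are shown for that reason. They are RefSeq windows of build GRCm38.p6, written along the gene's strand, with the TCF/LEF core CTTTG (or CAAAG) and the E-box CANNTG in capitals; both strands were searched.
Itga1, chr13:115101965-115102214, minus strand: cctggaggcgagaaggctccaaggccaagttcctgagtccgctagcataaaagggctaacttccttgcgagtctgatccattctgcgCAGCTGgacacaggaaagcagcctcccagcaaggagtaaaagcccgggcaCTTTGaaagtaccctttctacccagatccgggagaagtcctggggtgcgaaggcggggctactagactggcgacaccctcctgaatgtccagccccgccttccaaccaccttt
Cldn2, chrX:139800558-139800807, plus strand: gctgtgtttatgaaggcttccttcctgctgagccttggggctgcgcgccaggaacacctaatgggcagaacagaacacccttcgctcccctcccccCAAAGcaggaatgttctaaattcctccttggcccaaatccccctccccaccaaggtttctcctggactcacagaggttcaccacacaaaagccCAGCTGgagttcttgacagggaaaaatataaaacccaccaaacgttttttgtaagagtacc
In the Itga1 window the TCF/LEF core stood at -113 and the E-box at -163 from the start, and TATAAA was not found. In the Cldn2 window the core stood at -154, the E-box at -61 and TATAAA at -35. The same letters occur widely: of 32851 windows, 48.6% hold CTTTG or its reverse complement, 66.2% the E-box and 12.4% TATAAA, so a match describes the window only. Windows were found for 62 of the 90 members, 37 of them tested.

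Among the laminin receptors, Itga6 was higher in EGFP high cells in Atg7KO, and Itga3 did not pass the test in either genotype. Itga6, which pairs with Itgb4 in hemidesmosomes and with Itgb1 elsewhere, read 9.33, 9.55 and 9.38 in Atg7KO EGFP high cells against 8.99, 8.98, 8.70 and 8.82 in Atg7KO EGFP low cells. It read 9.32, 9.42 and 9.38 in WT EGFP high cells against 8.84, 9.13, 8.98 and 8.78 in WT EGFP low cells. The gates did not overlap in either genotype, and the difference was 0.55 (SE 0.13, adjusted p = 0.0174) in Atg7KO and 0.44 (SE 0.13, adjusted p = 0.106) in WT; the difference between these, 0.11 with a 95% interval of -0.29 to 0.51, had an adjusted p of 0.81. The Atg7KO call ended without Atg7KO EGFP high array 2 (0.49, adjusted p = 0.0815) and without Atg7KO EGFP low array 3 (0.49, adjusted p = 0.0509). It also ended after median centring (0.45, adjusted p = 0.0582) and with only the compared groups in the fit (adjusted p = 0.0599). Without the 2 arrays of narrowest spread the adjusted p was 0.0593.

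Itga3, whose product pairs with Itgb1, read 6.55, 6.41 and 6.79 in Atg7KO EGFP high cells against 6.91, 7.10, 7.50 and 7.55 in Atg7KO EGFP low cells, and 7.44, 6.66 and 6.75 in WT EGFP high cells against 7.78, 7.81, 7.51 and 7.02 in WT EGFP low cells. All 3 Atg7KO EGFP high arrays lay below the 4 EGFP low arrays, whereas in WT the groups overlapped. The differences were -0.68 (SE 0.24, adjusted p = 0.0792) in Atg7KO and -0.58 (SE 0.24, adjusted p = 0.256) in WT. The beta partners showed no difference past the test: Itgb1 differed by -0.22 in Atg7KO and 0.24 in WT (adjusted p = 0.488 and 0.606), and Itgb4 by 0.12 and 0.04 (adjusted p = 0.721 and 0.948). Without WT EGFP low array 4 the WT differences were 0.09 for Itgb1 and -0.08 for Itgb4, and without Atg7KO EGFP high array 2 the Atg7KO difference of Itgb1 was -0.14. For Itgb4 the 95% interval ran from -0.26 to 0.49 in Atg7KO and from -0.34 to 0.42 in WT. Itga7, a laminin-binding subunit best known from muscle, differed by -0.05 and -0.09.

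**Figure D1:**
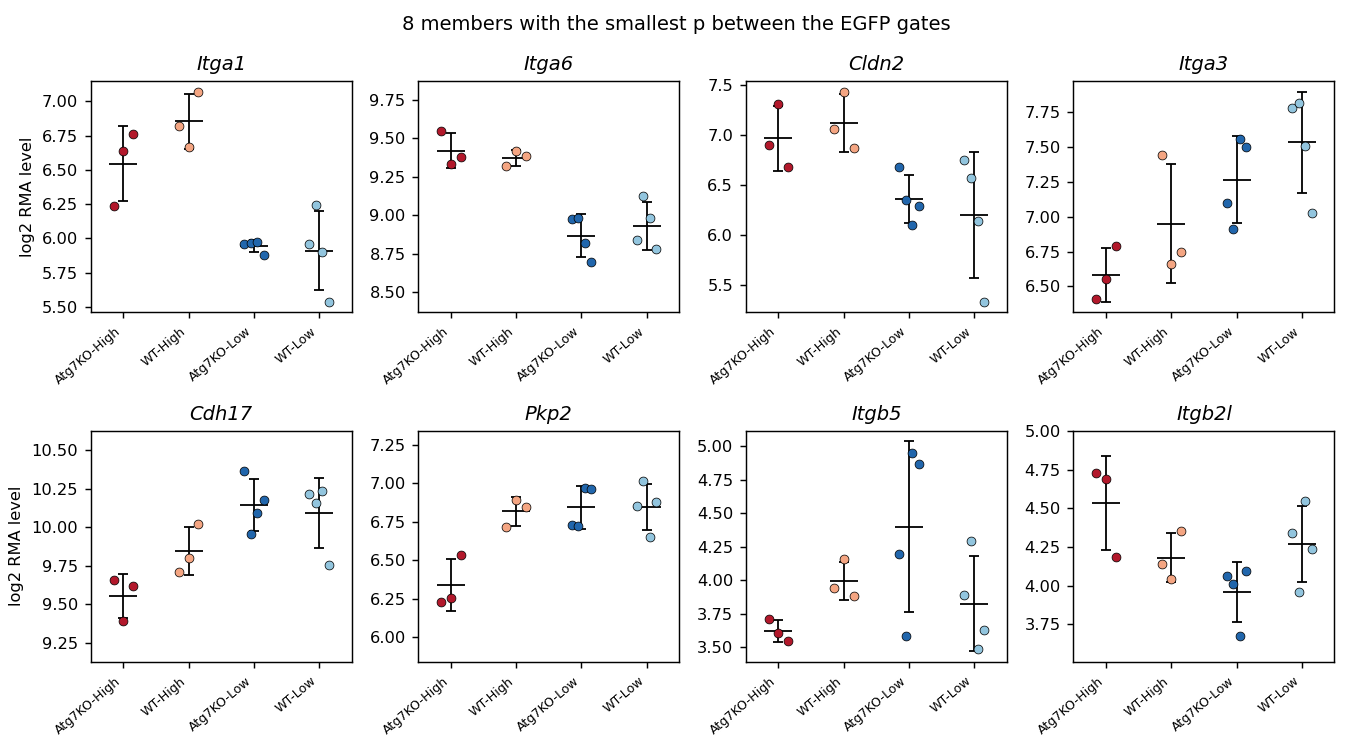
Log2 RMA level on each array for the 8 members with the smallest p between the gates, in Atg7KO EGFP high, WT EGFP high, Atg7KO EGFP low and WT EGFP low cells; points are arrays and bars the mean ± SD. Itga1 and Itga6 lie higher in EGFP high than in EGFP low cells of both genotypes without overlap, and Cdh17 and Pkp2 lie lower in Atg7KO EGFP high than in Atg7KO EGFP low cells.

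The integrins that bind the RGD motif of fibronectin and vitronectin gave 0 calls (background 10.9% in Atg7KO and 2.44% in WT). Itgav and Itga5 differed by -0.06 and 0.35 between the gates in Atg7KO, and by 0.17 and 0.01 in WT. Itgb6, an epithelial partner of Itgav, lay above the low gate on every high array of both genotypes. It read 6.12, 6.17 and 6.20 in Atg7KO EGFP high against 5.84, 5.84, 5.89 and 6.07 in Atg7KO EGFP low cells, and 6.02, 5.94 and 6.00 in WT EGFP high against 5.76, 5.92, 5.82 and 5.78 in WT EGFP low cells. The differences of 0.25 (SE 0.12, adjusted p = 0.181) in Atg7KO and 0.16 (SE 0.12, adjusted p = 0.568) in WT did not pass. Itgb8, another Itgav partner, differed by 0.07 in Atg7KO and 0.01 in WT. Itgb5 read 3.61, 3.71 and 3.55 in Atg7KO EGFP high cells against 3.59, 4.20, 4.86 and 4.95 in Atg7KO EGFP low cells, where 2 of the low arrays were high and 1 was at the level of the high arrays; the difference was -0.78 (SE 0.28, adjusted p = 0.0865).

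Integrin subunits known from blood cells also gave 0 calls. Itgam, the alpha subunit of a myeloid integrin, lay at 4.50, 4.39 and 4.44 in Atg7KO EGFP high cells and 4.78, 4.77, 4.65 and 4.78 in Atg7KO EGFP low cells, while Itgb2, its partner, lay at 4.15, 4.05 and 3.65 in Atg7KO EGFP high cells and 3.77, 3.91, 4.24 and 4.30 in Atg7KO EGFP low cells. The Itgam and Itgb2 differences in Atg7KO were -0.30 (SE 0.13, adjusted p = 0.14) and -0.11 (SE 0.17, adjusted p = 0.746). In WT they were -0.06 (SE 0.13, adjusted p = 0.88) and 0.15 (SE 0.17, adjusted p = 0.753). Itgb2l, a relative of Itgb2, differed by 0.58 (SE 0.18, adjusted p = 0.0537) in Atg7KO and -0.09 in WT; Itgb7, a lymphocyte subunit, by 0.08 and -0.06; and Itga2b, the platelet subunit, by 0.21 and -0.02. Of 13 leukocyte markers on the array 9 were tested and 0 were called between the gates (adjusted p in limma). The log2 summed level of all 13 was 7.97 to 8.07 in Atg7KO EGFP high and 7.46 to 8.04 in Atg7KO EGFP low cells. In WT it was 7.71 to 7.95 in EGFP high and 7.70 to 8.01 in EGFP low cells. Of 8 stromal markers only Acta2, Col1a1, Col1a2 and Vim were bright enough to test, and 0 of the 4 were called between the gates. The summed level of all 8 was 7.50 to 7.78 in Atg7KO EGFP high and 7.71 to 8.70 in Atg7KO EGFP low cells. In WT it was 7.37 to 7.53 in EGFP high and 7.62 to 8.60 in EGFP low cells, without overlap. Of 5 endothelial markers only Pecam1 was tested and was not called.

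Of the cadherins, Cdh17 was lower in EGFP high cells in Atg7KO and Cdh1 did not pass the test in either genotype. Cdh17, the liver-intestine cadherin of the enterocyte's lateral membrane, read 9.39, 9.66 and 9.62 in Atg7KO EGFP high cells against 9.95, 10.36, 10.17 and 10.09 in Atg7KO EGFP low cells, with no overlap, a difference of -0.59 (SE 0.16, adjusted p = 0.0274). It read 9.71, 9.80 and 10.02 in WT EGFP high cells against 10.21, 10.15, 10.23 and 9.75 in WT EGFP low cells, which overlap, a difference of -0.24 (SE 0.16, adjusted p = 0.512). The Atg7KO difference minus the WT difference was -0.35 (SE 0.22, adjusted p = 0.478), so the genotypes were not shown to differ. The Atg7KO call ended without Atg7KO EGFP low array 2 or 3 (adjusted p = 0.0656 and 0.0612) and without Atg7KO EGFP high array 2 or 1 (adjusted p = 0.0591 and 0.113). It also ended after another quantile normalization (-0.41, adjusted p = 0.0821) or cyclic loess (-0.38, adjusted p = 0.0999). With each array's SD as a covariate it ended at -0.39 (adjusted p = 0.237), and with only the compared groups in the fit at an adjusted p of 0.0591. E-cadherin (Cdh1) read 10.18, 10.09 and 10.12 in Atg7KO EGFP high against 9.90, 10.39, 10.25 and 10.06 in Atg7KO EGFP low cells, and 10.35, 10.29 and 10.42 in WT EGFP high against 10.33, 10.43, 10.39 and 9.60 in WT EGFP low cells, where array 4 was low. Its differences were -0.02 with a 95% interval of -0.42 to 0.39 in Atg7KO and 0.16 with -0.24 to 0.57 in WT. The WT difference of Cdh1 turned to -0.03 without WT EGFP low array 4.

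Markers of the cell types in the 2 gates moved beside these genes. Of 8 Lgr5 stem cell markers 7 were higher in EGFP high cells in Atg7KO (median 1.34) and 8 in WT (median 1.48), with summed levels of 12.64 to 12.88 in Atg7KO EGFP high against 11.14 to 11.75 in Atg7KO EGFP low cells, and 12.58 to 12.85 in WT EGFP high against 10.89 to 11.72 in WT EGFP low cells. Of 13 enterocyte markers 8 were lower in EGFP high cells in Atg7KO (median -1.27), and 1 (Krt20) in WT (median -0.47). Their summed level was 12.42 to 12.52 in Atg7KO EGFP high against 13.12 to 13.94 in Atg7KO EGFP low cells, and 12.58 to 13.38 in WT EGFP high against 13.26 to 13.71 in WT EGFP low cells. Goblet markers were lower for 9 of 9 in Atg7KO and 6 of 9 in WT, Paneth markers for 4 of 7 and 0 of 7, and enteroendocrine markers for 5 of 8 and 3 of 8. Of 5 tuft markers tested, 1 was called higher and 1 lower in Atg7KO EGFP high cells, and 0 were called in WT. Over all genes tested 4.48% were called higher and 6.44% lower in Atg7KO, and 2.44% were called in WT. The part of these cell types in the differences of Itga1, Itga6, Cdh17 and Pkp2 was not tested.

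Among the 14 claudins tested 0 were called between the gates in either genotype (limma), beside 10.9% of all genes in Atg7KO and 2.44% in WT. At an unadjusted p under 0.05 there were 2 in Atg7KO (Cldn20 and Cldn34c2) and 2 in WT (Cldn2 and Cldn23). The background for these was 27% and 14.8%. Cldn2, which forms a pore for cations and water and is known from crypt epithelium, read 7.31, 6.90 and 6.68 in Atg7KO EGFP high cells against 6.35, 6.68, 6.29 and 6.10 in Atg7KO EGFP low cells, and 7.06, 7.43 and 6.87 in WT EGFP high cells against 6.75, 6.57, 6.14 and 5.33 in WT EGFP low cells. The gates overlapped slightly in Atg7KO and were separate in WT, with differences of 0.61 (SE 0.29, adjusted p = 0.187) and 0.92 (SE 0.29, adjusted p = 0.115). Without WT EGFP low array 4 the WT difference was 0.64. Cldn23 ran the other way, at 4.90, 4.73 and 5.01 in WT EGFP high against 5.48, 5.46, 5.74 and 5.16 in WT EGFP low cells (difference -0.58, SE 0.21, adjusted p = 0.196) and with a difference of -0.38 (SE 0.21, adjusted p = 0.277) in Atg7KO, which was -0.10 without Atg7KO EGFP high array 2.

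The claudins known as the main ones of intestinal epithelium showed no difference between the gates past the test. Cldn7, a basolateral claudin, averaged 10.79 ± 0.15 in Atg7KO EGFP high against 10.72 ± 0.29 in Atg7KO EGFP low cells, and 10.87 ± 0.21 in WT EGFP high against 10.45 ± 0.40 in WT EGFP low cells (SD, n = 3 and 4). Cldn3, a sealing claudin, differed by -0.10 in Atg7KO and 0.25 in WT, and Cldn15, a cation-selective claudin of the small intestine, by -0.19 and 0.11. Without WT EGFP low array 4 the WT differences were 0.23 for Cldn7, 0.03 for Cldn3 and -0.16 for Cldn15. The adjusted p of these 3 claudins was between 0.383 and 0.889. The remaining claudins tested (Cldn4, Cldn11, Cldn12, Cldn14, Cldn18, Cldn19, Cldn20, Cldn34c1 and Cldn34c2) include several known mainly from other organs, and their differences in Atg7KO ran from -0.76 (Cldn34c2) to 0.50 (Cldn20).

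Tight junction plaque and membrane proteins also gave 0 calls of 4 in each genotype (background 10.9% in Atg7KO and 2.44% in WT). Tjp1, the scaffold zonula occludens protein, read 7.97, 7.47 and 8.27 in Atg7KO EGFP high cells against 8.03, 8.38, 8.56 and 8.37 in Atg7KO EGFP low cells, a difference of -0.43 (SE 0.18, adjusted p = 0.14), and differed by -0.05 in WT. Without Atg7KO EGFP high array 2, the lowest, the Atg7KO difference of Tjp1 was -0.22. Tjp3, a second scaffold, differed by -0.03 and 0.28. Ocln differed by 0.18 in Atg7KO and 0.07 in WT, and F11r by -0.48 and 0.16, with adjusted p of 0.216 or more. The WT differences turned to -0.11 for Ocln and -0.10 for F11r without WT EGFP low array 4. Connexins were likewise uncalled. Gjb2 differed by -0.14 in Atg7KO and 0.21 in WT, Gjb1 by -0.25 and -0.05, Gja5 by 0.23 and -0.13, and Gja1 by 0.09 and -0.07. Without WT EGFP low array 4 the WT differences were -0.20 for Gjb1, -0.17 for Gja1 and 0.01 for Gja5, and without Atg7KO EGFP high array 2 the Atg7KO differences were -0.09 for Gjb2 and 0.02 for Gja5.

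In the desmosome 1 of the 7 members tested, Pkp2, was called, in Atg7KO only. Over all genes tested 10.9% were called there, and 6.44% of all genes tested were called lower in EGFP high cells. Whether 1 call of 7 exceeds these shares was not tested. Plakophilin 2 links desmoplakin to the desmosomal cadherins. It read 6.25, 6.23 and 6.53 in Atg7KO EGFP high cells against 6.72, 6.73, 6.96 and 6.97 in Atg7KO EGFP low cells, with no overlap, and 6.71, 6.89 and 6.84 in WT EGFP high cells against 6.85, 7.01, 6.65 and 6.88 in WT EGFP low cells, where the groups overlap. The differences were -0.51 (SE 0.14, adjusted p = 0.0316) and -0.03 (SE 0.14, adjusted p = 0.948), and the Atg7KO difference minus the WT difference was -0.47 (SE 0.20, adjusted p = 0.312). The call in Atg7KO ended without Atg7KO EGFP low array 4 or 3 (adjusted p = 0.0738 and 0.0797) and without Atg7KO EGFP high array 2 or 1 (adjusted p = 0.12 and 0.112). It also ended with each array's SD as a covariate (-0.43, adjusted p = 0.178) and with only the compared groups in the fit (adjusted p = 0.087). Without the 2 arrays of narrowest spread the adjusted p was 0.106. Pkp3, the other plakophilin, differed by -0.13 in Atg7KO and -0.11 in WT. Desmoplakin (Dsp) differed by 0.26 and 0.37, and plakoglobin (Jup), which also binds Cdh1, by -0.03 and 0.43. Dsg2 and Dsc2, the desmosomal cadherins of simple epithelia, differed by -0.15 and -0.37 in Atg7KO and by -0.02 and 0.07 in WT. Leaving out WT EGFP low array 4 gave WT differences of 0.16 for Dsp, 0.21 for Jup, -0.24 for Pkp3, -0.08 for Dsg2 and -0.16 for Dsc2, the last with its sign turned. Without Atg7KO EGFP high array 2 the Atg7KO differences were -0.03 for Dsg2 and -0.24 for Dsc2. None of the differences of these 5 genes passed the test.

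**Figure D2:**
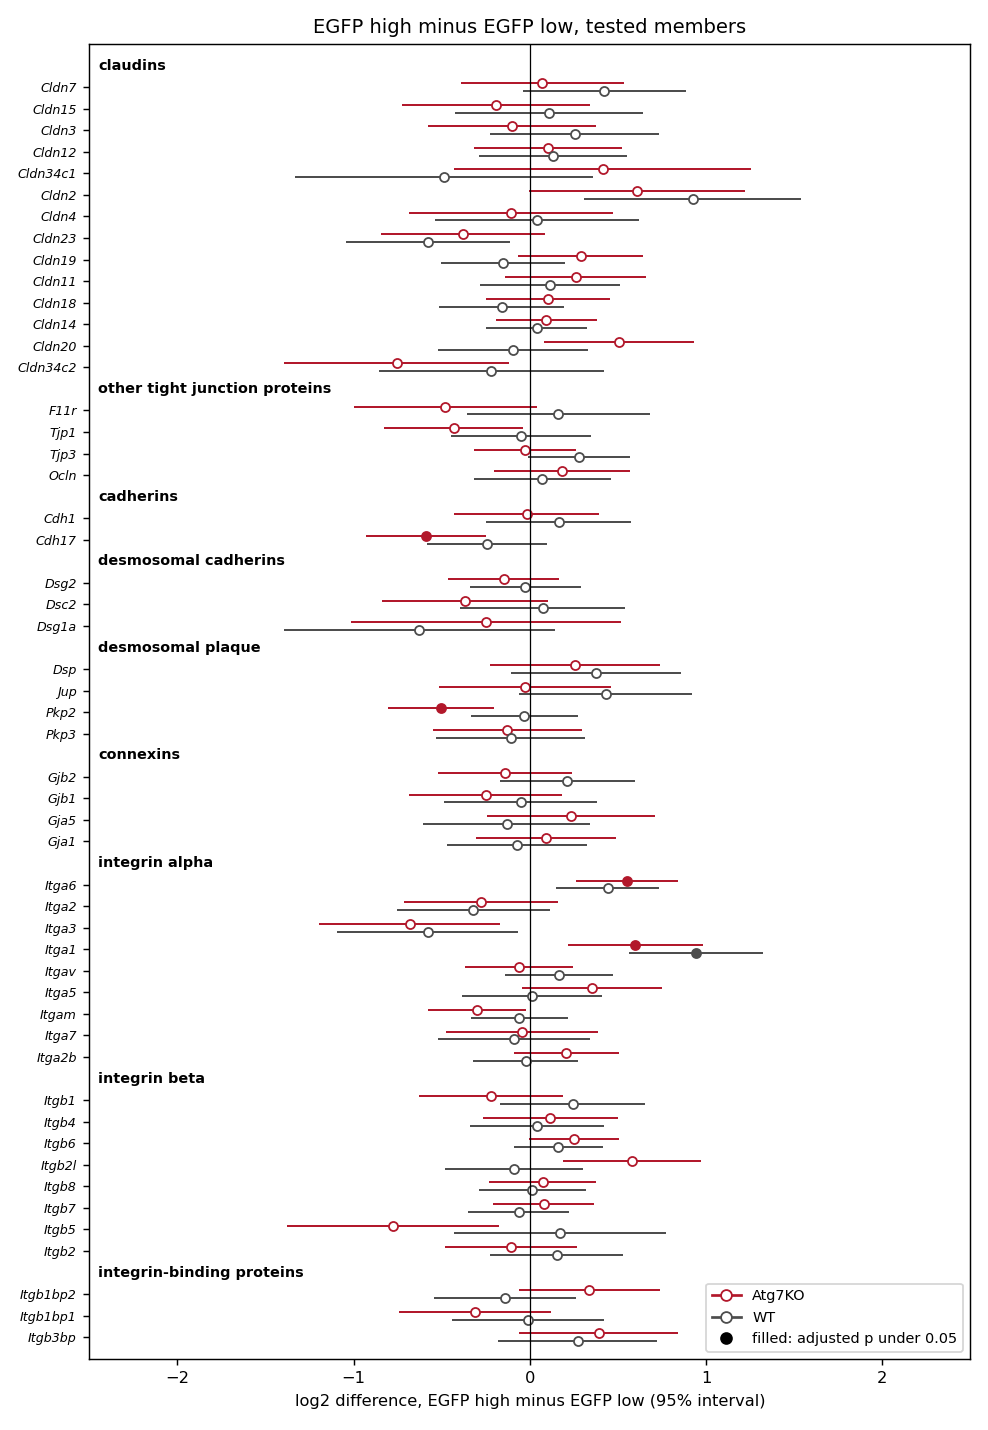
Difference of EGFP high minus EGFP low cells on the log2 scale for the 51 members tested, by family, in Atg7KO and in WT; bars are 95% intervals and filled points passed an adjusted p of 0.05. The 5 filled points are Itga1 in both genotypes and Itga6, Cdh17 and Pkp2 in Atg7KO.

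The errors leave room for modest differences between the gates. A difference of 1 on the log2 scale in either direction lay outside the 95% interval for 45 of 51 members in Atg7KO and for 45 of 51 in WT, against 76.6% and 83.8% of all genes tested. The median difference of the 51 members was -0.03 in Atg7KO and 0.01 in WT, beside 0.02 and 0.03 over all genes tested. The gates did not overlap for 11 members in Atg7KO (background 22.6%) and 6 in WT (background 16.5%).

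Among the partners of these proteins the calls between the gates fell on keratins, laminin chains, tensins and a few scaffold and polarity genes. Over all genes tested 10.9% were called between the gates in Atg7KO and 2.44% in WT, and no list was tested against these shares. The partner calls are given for the main fit only, and several lie near the threshold. Of 11 desmosome partners and keratins, 4 keratins were lower in EGFP high cells of Atg7KO mice: Krt20 (-2.55, SE 0.39, adjusted p = 0.00159), a keratin of differentiated villus cells, Krt7 (-1.09, SE 0.19, adjusted p = 0.00339), Krt19 (-0.81, SE 0.18, adjusted p = 0.0136) and Krt8 (-0.58, SE 0.17, adjusted p = 0.0385). In WT, Krt20 was lower (-1.73, SE 0.39, adjusted p = 0.0351). Among 13 integrin ligands tested, the laminin chain Lamb3 was higher in EGFP high cells of both genotypes (0.73, SE 0.20, adjusted p = 0.0298 in Atg7KO, and 1.03, SE 0.20, adjusted p = 0.0141 in WT) and Lamb2 in Atg7KO (0.88, SE 0.22, adjusted p = 0.0202). Lamb3 is a chain of the laminin that Itga6 and Itga3 receptors bind.

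Among 22 integrin adhesion and hemidesmosome partners tested, the tensin Tns3, which links integrin tails to actin, was higher in EGFP high cells of both genotypes (1.33, SE 0.24, adjusted p = 0.00341 in Atg7KO, and 1.15, SE 0.24, adjusted p = 0.0214 in WT). Tns4 was higher in WT (1.08, SE 0.26, adjusted p = 0.0434) and had a difference of 0.25 (SE 0.26, adjusted p = 0.589) in Atg7KO, and the difference between genotypes did not pass (adjusted p = 0.337). Lims1, an adaptor of the integrin-linked kinase complex, was lower in Atg7KO EGFP high cells (-0.53, SE 0.15, adjusted p = 0.0346). Of 15 tight junction partners tested, Cgnl1 was higher in Atg7KO (0.81, SE 0.21, adjusted p = 0.0231). Of 17 polarity genes, Pard3b was higher and Mark2 lower in Atg7KO (0.78, SE 0.19, adjusted p = 0.0174, and -0.48, SE 0.15, adjusted p = 0.0492), and Prkci, the atypical protein kinase C of the apical complex, was higher in WT (0.61, SE 0.14, adjusted p = 0.0405). Of 13 adherens junction partners 0 were called in either genotype. In none of the partner lists did a gene pass for the difference between the genotypes. A partner called in only 1 genotype was therefore not shown to differ from the other.

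The next comparison asked what loss of Atg7 did to the same genes in EGFP high cells. No member passed: 0 of 51 were called by limma at an adjusted p of 0.05, against 0.0126% of all genes tested, and the smallest adjusted p among members was 0.181. At an unadjusted p under 0.05 there were 5 members, Cldn19 above 0 and Cldn34c2, Gjb2, Pkp2 and Tjp1 below 0, against 15.9% of all genes. The Atg7KO and WT arrays did not overlap for 17 members, 33.3%, where the background was 25.3%. With array weights, which give less weight to noisier arrays, 2 members passed (Cldn34c2 and Pkp2), where 703 of all genes did. A difference of 1 in either direction lay outside the 95% interval for 47 of 51 members (background 80.5%).

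In the junction plaques, Pkp2 read 6.25, 6.23 and 6.53 in Atg7KO against 6.71, 6.89 and 6.84 in WT EGFP high cells, with no overlap and a difference of -0.48 (SE 0.15, adjusted p = 0.181). Desmoplakin read 9.26, 8.81 and 9.00 in Atg7KO against 9.66, 9.23 and 9.58 in WT (-0.46, SE 0.24, adjusted p = 0.354), and plakoglobin 8.40, 8.16 and 8.37 in Atg7KO against 8.78, 8.60 and 8.80 in WT (-0.42, SE 0.24, adjusted p = 0.41). Jup did not overlap and Dsp did. The 4 plaque genes were all below 0 (53.8% of all genes were), with a median of -0.44. They lie in the 2 highest of 5 equal classes of mean level, where 73.4% and 76.7% of all genes were below 0. Their median was -0.26 after another quantile normalization and -0.01 with the spread of each array as a covariate. Tjp1 read 7.97, 7.47 and 8.27 in Atg7KO against 8.41, 8.32 and 8.42 in WT, where Atg7KO array 2 was the lowest and the groups were separate, a difference of -0.48 (SE 0.19, adjusted p = 0.263). Without that array the Tjp1 difference was -0.26. Ocln read 8.06, 8.19 and 8.01 in Atg7KO against 8.11, 7.97 and 8.25 in WT, with overlap and a 95% interval of -0.43 to 0.39.

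Cdh1 read 10.18, 10.09 and 10.12 in Atg7KO EGFP high cells against 10.35, 10.29 and 10.42 in WT EGFP high cells, without overlap, a difference of -0.22 (SE 0.20, adjusted p = 0.615). Cdh17 differed by -0.29 (SE 0.17, adjusted p = 0.411). The gap junction gene Gjb2 read 7.46, 7.49 and 7.86 in Atg7KO against 8.04, 8.31 and 7.84 in WT, which overlap, with a difference of -0.46 (SE 0.19, adjusted p = 0.267). Among claudins, Cldn34c2 had the largest difference, -0.90 (SE 0.32, adjusted p = 0.214), at values of 2.80, 3.65 and 2.70 in Atg7KO against 3.97, 3.78 and 4.11 in WT that straddle the percentile used as the filter. Cldn3 read 8.61, 8.23 and 8.47 in Atg7KO against 8.85, 9.01 and 8.91 in WT (-0.49, SE 0.24, adjusted p = 0.33), and Cldn19, known from kidney tubules, 5.13, 5.38 and 5.25 in Atg7KO against 4.86, 4.99 and 4.71 in WT (0.40, SE 0.17, adjusted p = 0.289). The claudins had no common direction, with 9 of 14 above 0, beside 46.2% of all genes; after median centring 9 of 14 were below 0.

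Of the integrins in EGFP high cells, Itga1 differed by -0.31 (SE 0.19, adjusted p = 0.431) between Atg7KO and WT, or -0.15 without Atg7KO EGFP high array 2, and Itga6 by 0.05 (SE 0.14, adjusted p = 0.894) with a 95% interval of -0.26 to 0.35. Itgb1 read 8.35, 8.21 and 8.55 in Atg7KO against 8.49, 8.86 and 8.78 in WT (-0.34, SE 0.20, adjusted p = 0.416), and Itgb4 6.95, 6.91 and 7.07 in Atg7KO against 6.89, 6.99 and 7.05 in WT (-0.0013, SE 0.19, adjusted p = 0.998). Itgb4 means were the same to 2 decimals. Itgav, the common partner of the RGD-binding beta subunits, differed by -0.32 (SE 0.15, adjusted p = 0.321). Ctnnb1 and Ctnna1, the catenins that couple cadherins to actin, differed by -0.66 (SE 0.25, adjusted p = 0.235) and -0.52 (SE 0.17, adjusted p = 0.201). The 13 adherens junction partners tested, which include these catenins, had no common direction, with 6 above 0 and a median of -0.01. Fewer were above 0 among desmosome partners and keratins (1 of 11, median -0.31) and polarity genes (3 of 17, -0.25). The same held for integrin adhesion and hemidesmosome partners (5 of 22, -0.20) and tight junction partners (4 of 15, -0.07). Of 13 integrin ligands 8 were above 0 (median 0.11). Over all genes tested 46.2% were above 0, and these directions were not tested. In none of the partner lists was a gene called between genotypes.

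**Figure D3:**
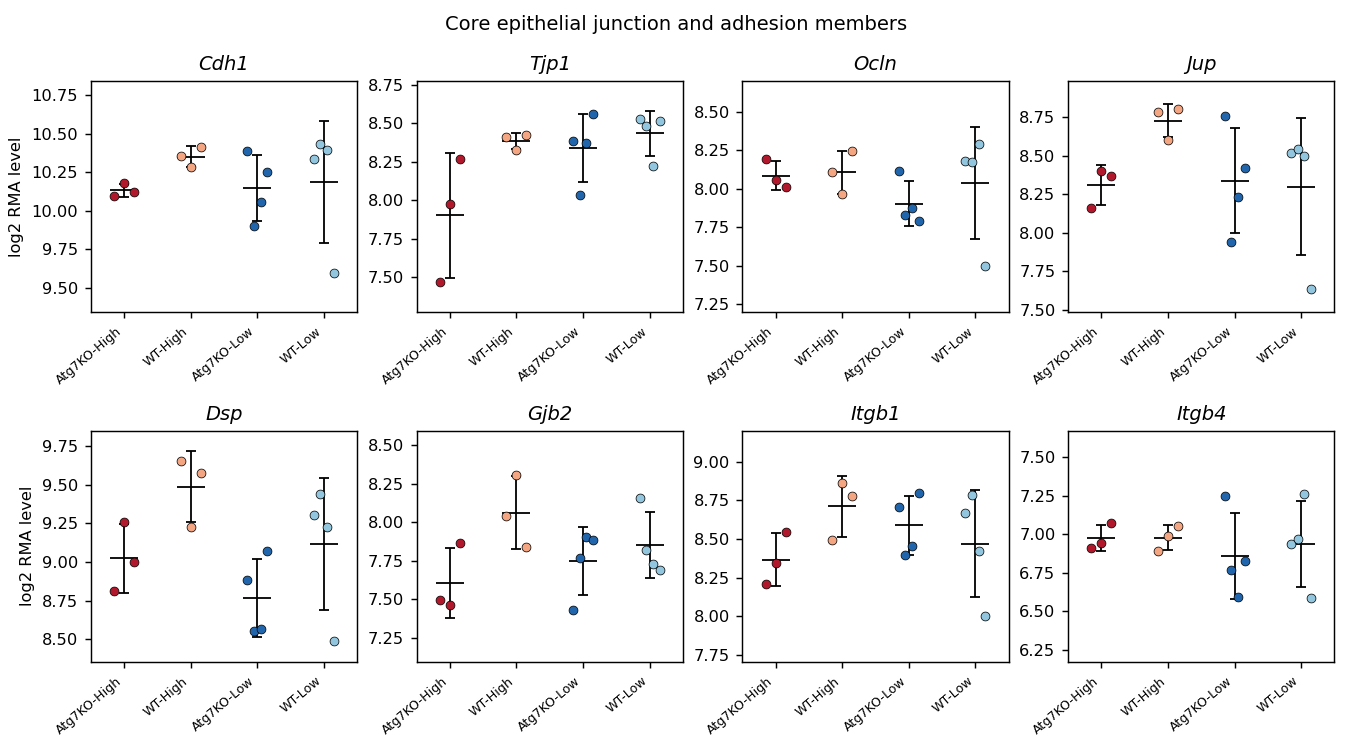
Log2 RMA level on each array for Cdh1, Tjp1, Ocln, Jup, Dsp, Gjb2, Itgb1 and Itgb4 in Atg7KO EGFP high, WT EGFP high, Atg7KO EGFP low and WT EGFP low cells; points are arrays and bars the mean ± SD. Cdh1, Tjp1 and Jup separate Atg7KO from WT in EGFP high cells, none past the test, and WT EGFP low array 4 is the low point of its group for Cdh1 (9.60), Ocln (7.50) and Jup (7.63).

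The small negative differences in Atg7KO EGFP high cells lay mostly in bright genes. Of the 17 members in the highest of 5 equal classes of mean level, 16 were below 0, with a median of -0.29; among all genes of that class 76.7% were below 0, with a median of -0.24. In the lowest class 3 of 12 members were below 0 (median 0.13), beside 25.8% of all genes (median 0.13). The mean of the 17 bright members was 8.66 ± 0.11 in Atg7KO and 8.94 ± 0.04 in WT EGFP high cells (SD, n = 3 each). The spread of the arrays moved with the groups: the SD over all values of an array was 1.90 to 1.98 in Atg7KO and 1.99 to 2.06 in WT EGFP high cells. With that SD as a covariate the median of the 17 was 0.04 and 10 of 17 were above 0, and after cyclic loess it was -0.09. No cell type marker was called in this comparison. The median difference was -0.63 for enterocyte markers (0 of 13 above 0), -0.98 for goblet markers (0 of 9), -0.59 for Paneth markers (1 of 7), -0.04 for enteroendocrine markers (3 of 8), 0.18 for tuft markers (3 of 5 tested) and -0.04 for Lgr5 stem cell markers (4 of 8), and the medians of the leukocyte, stromal, endothelial and platelet markers tested lay between 0.10 and 0.35. Their part in the members' values was not tested. The grouping by level was chosen after seeing the data.

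**Figure D4:**
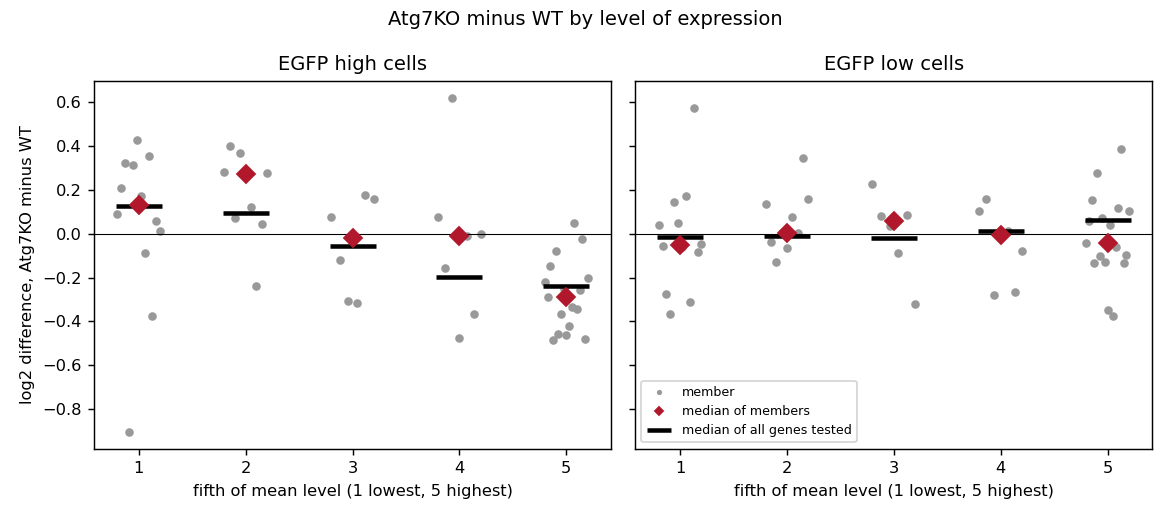
Difference of Atg7KO minus WT on the log2 scale for the members tested, placed in 5 classes of mean level from low to high, with the medians of members and of all genes tested in each class. In EGFP high cells the medians run from 0.13 for members and for all genes in the lowest class to -0.29 for members and -0.24 for all genes in the highest.

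Between the genotypes in EGFP low cells 0 of 51 members were called (0.0063% of all genes), the smallest adjusted p was 0.678, 1 member (Itgb5) had an unadjusted p under 0.05 (background 7.26%), and in 0 of 51 did the groups not overlap (background 3.4%). Itgb5 read 3.59, 4.20, 4.86 and 4.95 in Atg7KO against 3.89, 4.30, 3.49 and 3.63 in WT EGFP low cells, a difference of 0.57 (SE 0.26, adjusted p = 0.678). A difference of 1 in either direction lay outside the 95% interval for 49 of 51 members (background 91.2%), and the members' median was 0.00. Cdh1 differed by -0.04, Cdh17 by 0.06, Pkp2 by -0.0041, Tjp1 by -0.10, Itga6 by -0.06 and Itgb4 by -0.08. Without WT EGFP low array 4 the differences were -0.24 for Cdh1, -0.06 for Cdh17, 0.01 for Pkp2, -0.07 for Tjp1, -0.11 for Itga6 and -0.20 for Itgb4, with the signs of Cdh17 and Pkp2 turned. The WT EGFP low spread rested in part on array 4, which had the lowest value of its group for 16 of the 17 bright members and of all 14 arrays for 11 of them; their mean was 8.33 on that array and 8.94 to 8.95 on the other 3.

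**Figure D5:**
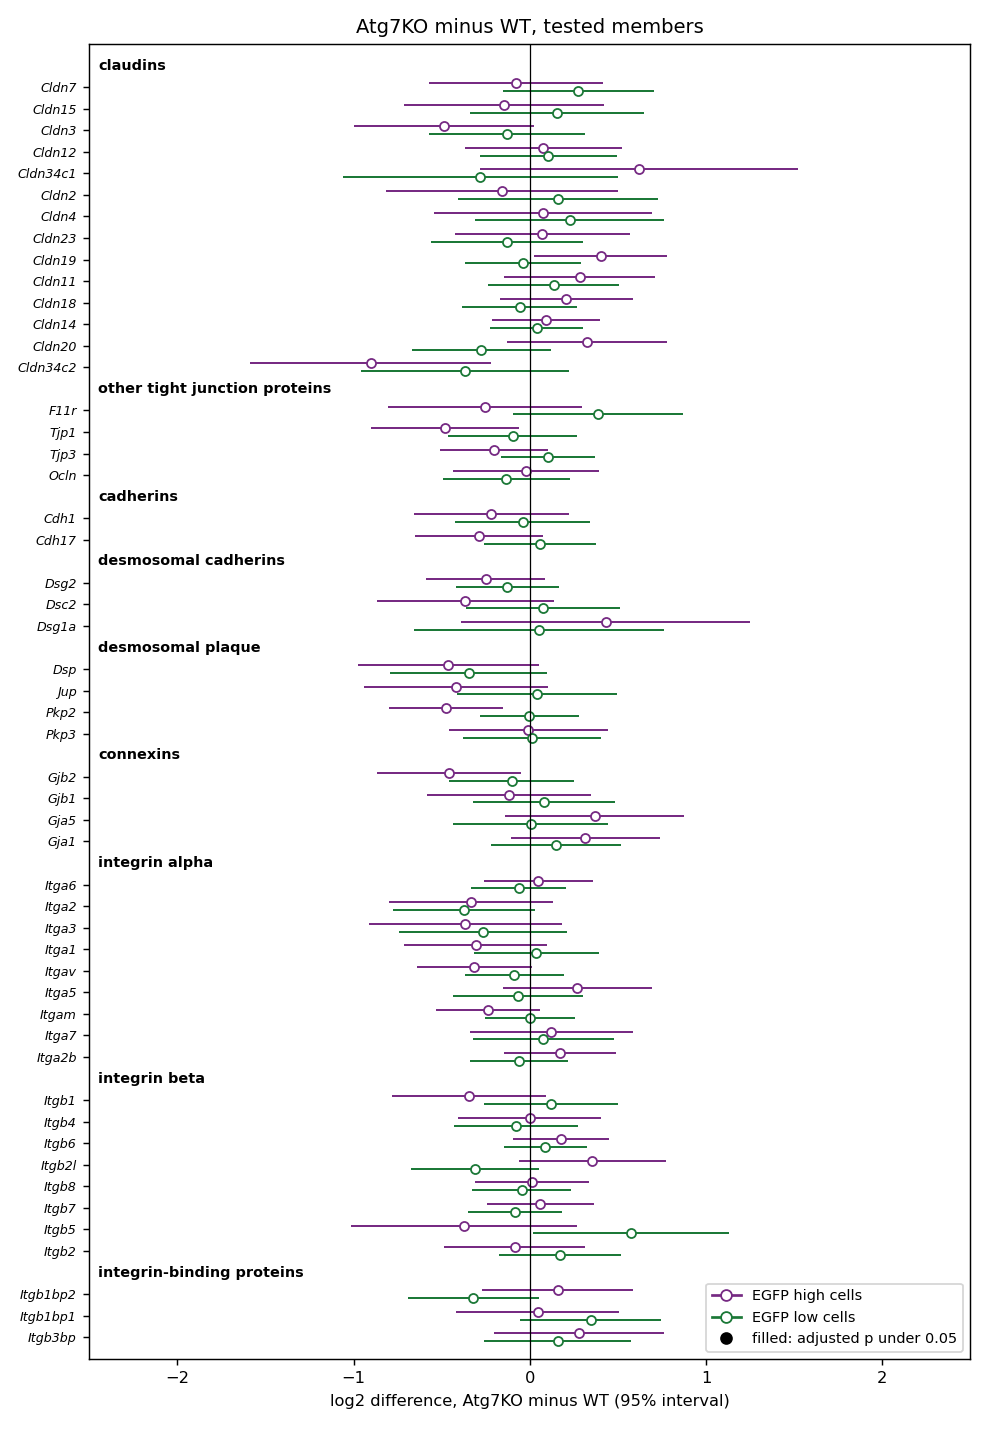
Difference of Atg7KO minus WT on the log2 scale for the 51 members tested, by family, in EGFP high and in EGFP low cells; bars are 95% intervals. No point is filled, since 0 of 51 members passed an adjusted p of 0.05 in either gate.

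Whether the effect of Atg7 loss differed between the gates was tested as the difference of the 2 differences. By limma 0 of 51 members passed (0.0063% of all genes), and 4 had an unadjusted p under 0.05 (background 14%). These were Cldn20 (0.60, SE 0.28, adjusted p = 0.355), Itgb2l (0.67, SE 0.26, adjusted p = 0.289), Pkp2 (-0.47, SE 0.20, adjusted p = 0.312) and Itgb5 (-0.95, SE 0.39, adjusted p = 0.313), of which Cldn20, Itgb2l and Itgb5 lay near background on part of the arrays. For 36 of 51 members a difference of 1 lay outside the 95% interval (background 59.2%), while for the rest the interval reached it.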

How the data were processed

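RNA from sorted crypt cells of 4 groups was hybridised to 14 arrays. The authors' deposited values are log2 levels, for which the submitters' processing notes name RMA and Affymetrix Expression Console without versions. Probe sets were named from the platform annotation: of 25429, 24675 had 1 symbol, 0 had several and 754 had none. All 90 members matched RefSeq by Entrez number, and no symbol differed.

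A gene was tested if 3 or more arrays held it at or over their 40th percentile, which kept 15873. Group means were fitted in limma 3.58.1 (R 4.3.3) over all 14 arrays, with 10 residual degrees of freedom and 4.54 prior ones, and 5 contrasts were adjusted by Benjamini-Hochberg over all genes tested; a call is an adjusted p under 0.05. The fit was run on simulated data with independent noise for each gene and array. Those data lack the array-wide shifts seen here, so that run cannot show how the fit handles them. The number of arrays limits the precision. Members, marker lists and partner lists were chosen with earlier results of these data known. Genes named are those called, the 2 with the smallest p of each family and contrast, the 3 of highest mean value per family, and a fixed set of core genes; other members are summarised or named with their differences. Alternatives were 11 settings of filter, scaling and model, and leaving out each array in turn.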

Additional observations from a re-analysis of the deposited data

Results flagged for a closer look

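In a group of 4 arrays a value was marked when its gap to the nearest other array took up a larger part of the group's range than Dixon's 95% critical value, which chance gives for about 1 in 20 groups. This was so in 11 of 78 cases, the 39 named genes in the EGFP low cells of each genotype, and 6 of the 11 fell on WT EGFP low array 4. On that array Cdh1 was at 9.60, with the other 3 arrays at 10.33 to 10.43, Cdh17 at 9.75 (10.15 to 10.23), Cldn15 at 8.40 (9.40 to 9.55), Cldn3 at 8.01 (8.80 to 8.94), Jup at 7.63 (8.50 to 8.54) and Ocln at 7.50 (8.18 to 8.29). Dsg1a was high on WT EGFP low array 1, at 4.77 against 3.81 to 3.96 on the other 3, and Tjp1 low on WT EGFP low array 3, at 8.22 against 8.48 to 8.52. On Atg7KO EGFP low array 3 Gja1 was at 4.13 against 3.55 to 3.65, and Itgam at 4.65 against 4.77 to 4.78. Gjb1 was at 6.54 on Atg7KO EGFP low array 2, against 5.98 to 6.07 on the others.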

How the results depend on the processing

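With 3 or 4 arrays per group, calls near the threshold depended on the setting. The 4 members called between the gates in Atg7KO became 2 after median centring (Cdh17 and Pkp2), 2 with each array's SD as a covariate (Itga1 and Itga6) and 0 with only the compared groups in the fit, which leaves fewer arrays; leaving out each array in turn gave 0 to 5. The 1 call between the gates in WT became 3 with array weights (Itga1, Itga3 and Itga6), and 0 to 1 without single arrays; Itga1 was called there in 24 of 25 alternatives (0.81 to 1.05). The 0 calls between genotypes in EGFP high cells became 2 with array weights and stayed 0 to 0 without single arrays, as in EGFP low cells and for the difference of differences. In Atg7KO, Itga1 was called between the gates in 13 of 25 alternatives, Itga6 in 20, Cdh17 in 17 and Pkp2 in 18. No called difference changed sign. Over all genes, the 1734 calls between the gates in Atg7KO became 1027 with only the compared groups, 495 with the SD covariate and 1110 without the 2 arrays of narrowest spread (781 to 2122 without single arrays), and 41% of them were higher, against 26% after median centring. Those in WT, 2.44% of genes tested, became 1201 genes with array weights (103 to 442 without single arrays). The 2 between genotypes in EGFP high cells became 703 with array weights, 5 with only the compared groups and 43 without Atg7KO EGFP high array 3. Median centring moved the median of all genes in that comparison to -0.14, from -0.03, and that of the difference of differences to -0.16. The causes were not tested. Of the numbers in the titles 3 occur in both gates, always within the same genotype. The labels do not say that these numbers name animals, so the main fit did not pair the samples. The deviations of arrays that share a number correlated at 0.11, 0.18 and -0.04. These correlations ranked 1, 1 and 2 among those with the 3 arrays of the other gate. With so few arrays they cannot decide whether a shared number means a shared mouse. With the replicate block (consensus correlation 0.0732) 5 members were called between the gates in Atg7KO, Itgb2l (adjusted p = 0.0496) being added, and the counts of members in the other comparisons did not change. In the fainter genes, values near the array's background limit what could be detected.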

Other observations

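3 genes match the integrin pattern by symbol and are not integrins. Itgb1bp1 binds the tail of the beta 1 subunit, Itgb1bp2 is melusin, a muscle protein, and Itgb3bp is a centromere protein. Their differences between EGFP high and EGFP low cells were -0.31, 0.34 and 0.39 in Atg7KO, and 0 of 3 were called in any comparison. Of 4 connexins and pannexins outside the pattern that were tested (Gjd2, Gjd3, Panx1 and Panx2), 0 were called, and Panx1 differed by -0.47 between the gates in Atg7KO (adjusted p = 0.143). Of the leukocyte integrins outside the pattern Itgae and Itgal were tested; Itgae, the alpha subunit of intraepithelial lymphocytes whose partner is Itgb7 and whose ligand is E-cadherin, differed by 0.68 between the gates in Atg7KO (adjusted p = 0.09).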
